A study of Mus musculus with 44 samples.

Results

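Transcripts of 9 genes of the complement system and its soluble recognition molecules were followed by bulk RNA-seq in mouse BMDMs (bone marrow-derived macrophages, grown from marrow cells with M-CSF). The 9 genes were C1qa, C1qb, C1qc, C3, Cfb, Cfp, C3ar1, C5ar1 and Ptx3, taken by symbol from count tables that each listed 24940 genes. All 9 passed the low-count filter in all 4 tables, so none was lost before testing.

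The series held 44 libraries in 22 groups of 2, deposited as 4 tables for 4 experiments, and asked how the corepressor NCoR (gene Ncor1), its partner deacetylase HDAC3, the coactivator Pgc1β and the kinase TBK1 shape the macrophage response to inflammatory signals. In the first experiment, NCoR flox/flox (WT) and NCoR flox/flox, LysMCre (NKO) BMDMs received vehicle, Kdo2-lipid A (KLA, a TLR4 agonist), poly I:C (a double-stranded RNA mimic sensed by TLR3), IFNβ or IL-4 for 6 h, or RANKL for 12 h. In the second, wild-type BMDMs received vehicle, KLA, or KLA with the HDAC3 inhibitor RGFP966. The third compared Pgc1b flox/flox with Pgc1b flox/flox, LysMCre BMDMs under vehicle and KLA. The fourth compared wild-type BMDMs under DMSO, DMSO with KLA, and a TBK1 inhibitor with KLA. Vehicle or KLA lasted 6 h in these experiments. Per the paper's methods, RGFP966 and the TBK1 inhibitor were added with the serum starvation, 12 h before KLA. The mice were adult C57BL/6 animals, LysMCre acts across myeloid cells, and the floxed alleles without Cre served as controls, so an effect of Cre itself cannot be told apart from the deletion. The labels do not say that the 2 libraries of a group came from separate cultures or mice, so p-values measured the spread between these libraries only.

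Complement is a cascade of plasma and local proteins that tags microbes and cell debris. C1q, built from the products of C1qa, C1qb and C1qc, starts the classical pathway, and tissue macrophages are a main source of it. The alternative pathway deposits C3 with factor B (Cfb) and is stabilised by properdin (Cfp), the C3a and C5a fragments signal through C3ar1 and C5ar1, and the long pentraxin Ptx3 is a secreted pattern recognition molecule that binds C1q and is classically induced by Toll-like receptor ligands.

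Libraries held between 8323493 and 16783155 gene counts. Ncor1 was lower in NKO than in WT cells in all 6 treatments, with a fall of between 1.41 and 1.78 on the log2 scale. Ppargc1b, the gene of Pgc1β, was not lower in the libraries labelled Pgc1b flox/flox, LysMCre (in CPM, counts normalised to the TMM-scaled library size, 3.58 against 3.63 in vehicle and 9.50 against 7.29 CPM under KLA), so counts over the whole transcript did not check these labels. The paper examined Pgc1β protein by immunoblot in BMDMs of both Pgc1b genotypes. Macrophage markers (7 genes) summed to between 4380 and 12500 CPM in all libraries. The 5 neutrophil and precursor markers, which include Mpo, Elane and S100a8, summed to between 629 and 987 CPM in the 4 RANKL libraries and to at most 22.1 CPM in all others. The RANKL libraries were also called osteoclast in the count table, yet the 8 osteoclast markers summed to 247 to 448 CPM there against 958 to 1120 CPM in WT vehicle. The WT_KLA, NKO_KLA and RANKL libraries each carried a sample stamp of their own, different from that of the vehicle, poly I:C, IFNβ and IL-4 libraries. The stamp and the treatment cannot be told apart in KLA or RANKL against vehicle, nor the stamp and the genotype in NKO against WT under KLA. Library WT_Veh replicate 2 stood apart for C3 and Cfb, and the C3 and Cfb results that use it are also given without it. The WT_Veh libraries also differed most from each other of all groups. Over 12835 genes their chi-square for equal levels was 5.87 per degree of freedom, against 1.54 to 4.38 in the other groups.

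The 3 C1q genes lie in a row on the minus strand of chromosome 4 (mm10) within 18.7 kb, with 3624 bases between C1qb and C1qc and 3001 between C1qc and C1qa. The 250 bases before the annotated start of C1qb, C1qc, C3 and Ptx3 are shown because the first pair moved together and the second pair rose with KLA. They are RefSeq sequences on build GRCm38.p6, whose gene starts equal those of the deposited mm10 rows for C1qc, C3 and Ptx3. RefSeq promoters were matched for 7 of the 9 genes. Capitals mark matches, on either strand, to a loose NF-κB-like pattern (GGG and CC with any 5 bases between), and matches may overlap.
C1qb (chr4:136886201-136886450, minus strand): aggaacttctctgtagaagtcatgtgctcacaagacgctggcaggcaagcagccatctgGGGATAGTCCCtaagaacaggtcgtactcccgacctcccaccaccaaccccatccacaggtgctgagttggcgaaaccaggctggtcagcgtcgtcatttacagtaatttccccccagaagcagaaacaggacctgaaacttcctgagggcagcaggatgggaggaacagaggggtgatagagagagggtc
C1qc (chr4:136892915-136893164, minus strand): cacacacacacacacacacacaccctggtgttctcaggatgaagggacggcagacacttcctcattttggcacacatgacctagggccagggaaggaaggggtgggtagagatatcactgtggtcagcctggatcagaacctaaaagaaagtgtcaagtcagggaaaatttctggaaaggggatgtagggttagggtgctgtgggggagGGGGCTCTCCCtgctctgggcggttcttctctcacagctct
C3 (chr17:57228137-57228386, minus strand): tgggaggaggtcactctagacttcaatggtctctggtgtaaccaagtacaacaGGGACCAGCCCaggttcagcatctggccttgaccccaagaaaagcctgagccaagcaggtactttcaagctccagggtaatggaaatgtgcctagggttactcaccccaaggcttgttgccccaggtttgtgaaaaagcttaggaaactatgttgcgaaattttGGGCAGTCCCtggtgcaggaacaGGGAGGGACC
Ptx3 (chr3:66219637-66219886, plus strand): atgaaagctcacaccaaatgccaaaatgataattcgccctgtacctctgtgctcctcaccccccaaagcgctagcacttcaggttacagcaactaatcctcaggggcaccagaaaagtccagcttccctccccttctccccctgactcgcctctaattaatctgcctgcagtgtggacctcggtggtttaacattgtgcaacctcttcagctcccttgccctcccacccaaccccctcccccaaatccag
The pattern occurred in 5 of the 7 promoters and in 45.8% of 32851 mouse promoters of this length. A match on both strands stood 33 to 24 bases before the start of C3 and 40 to 31 bases before that of C1qc. No match to an ISRE-like pattern (GAAA and GAAA with any 2 bases between, 2.98% of promoters), TTCNNNGAA (7.02%) or TTGCNNCAA (1.74%) was found in any of the 7, and TGANTCA (6.75%) was found only in C3ar1, 22 to 16 bases before its start.

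Per kilobase of transcript, C1qb was the most abundant of the 9 transcripts in WT vehicle cells. The group means were 1910 CPM per kb for C1qb, 1320 for C1qc, 550 for C1qa, 508 for C3ar1, 242 for C5ar1 and 193 for Cfp. C3 averaged 13.5 CPM per kb there, Cfb 1.54 and Ptx3 0.591. The recognition chains and receptors were thus high in resting cells, while C3, Cfb and Ptx3 were low.

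**Figure D1:**
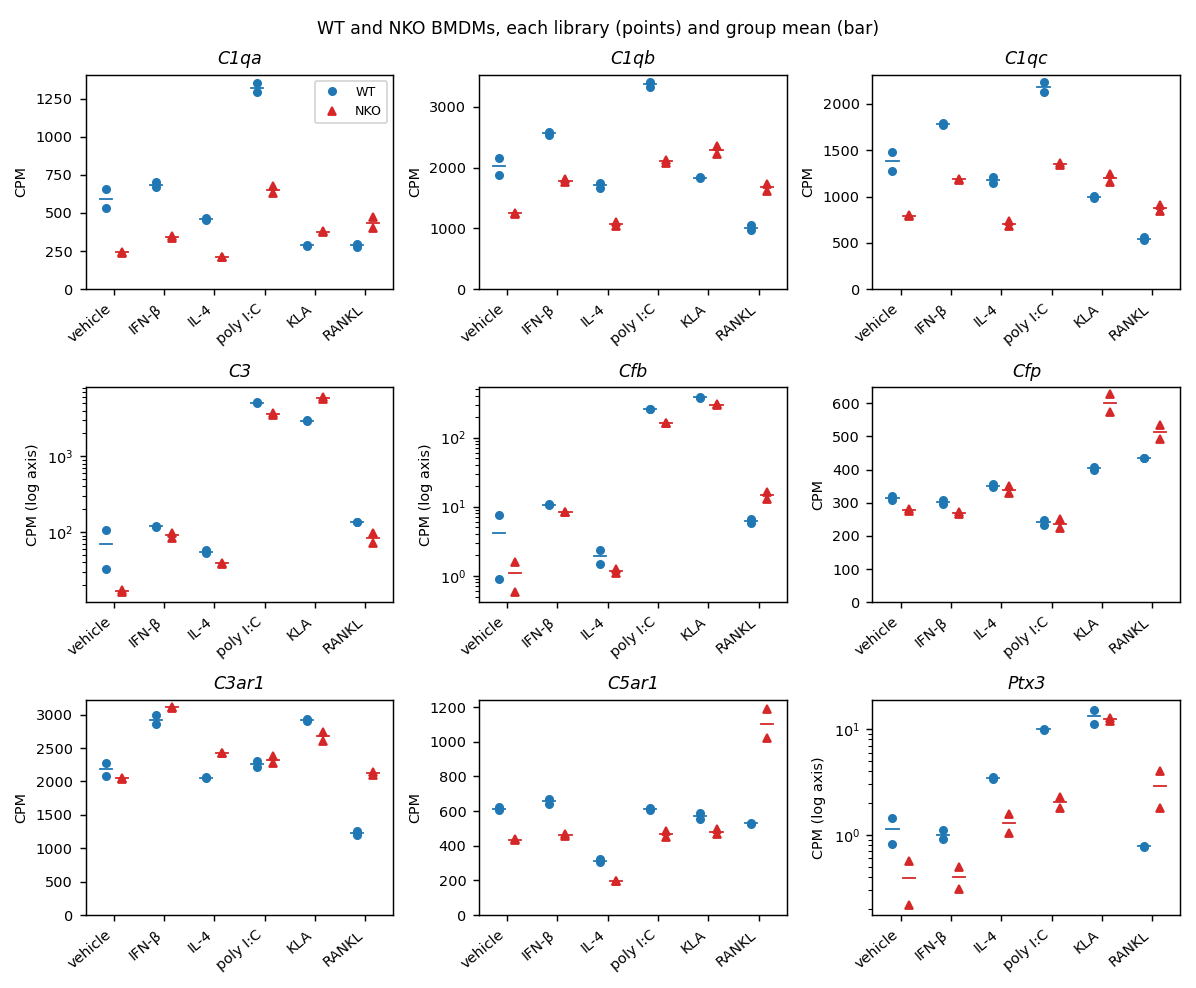
CPM of the 9 genes in each library (points) of WT (circles) and NKO (triangles) BMDMs under 6 treatments, with the mean of the 2 libraries as a bar; C3, Cfb and Ptx3 are on log axes. C3, Cfb and Ptx3 rose under poly I:C and KLA, and the C1q genes lay lower in NKO than in WT under vehicle, IFNβ, IL-4 and poly I:C.

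Signals in WT cells were compared with vehicle first. A gene was called changed at a Benjamini-Hochberg adjusted p under 0.05 in edgeR's quasi-likelihood test, adjusted over all genes tested, with a fold above 1.5. With KLA, 4 of 9 genes were called, 3 higher and 1 lower, where 57.8% of all 13407 tested genes were called (25.4% higher and 32.3% lower). With poly I:C, 6 of 9 were called, all higher, against 47.2% of all genes (22.2% higher). Scaled by library totals without TMM factors, the split was 3 higher and 4 lower with KLA and 3 higher and 3 lower with poly I:C. The alternative pathway genes showed the widest range. C3, the component on which all pathways converge, was at 32.4 and 105 CPM in the WT vehicle libraries, at 2950 and 2980 CPM under KLA and at 5000 and 5230 CPM under poly I:C. All 4 stimulated libraries lay far above both vehicle libraries. The log2 change was 5.43 (SE 0.351, adjusted p = 5.37e-09) with KLA and 6.22 (SE 0.361, adjusted p = 1.87e-09) with poly I:C. Without WT_Veh replicate 2 they were 6.51 and 7.30.

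Cfb, the protease subunit of the alternative C3 convertase, stood at 0.894 and 7.53 CPM in WT vehicle. It reached 385 and 379 CPM under KLA and 263 and 260 CPM under poly I:C. These changes were 6.50 (SE 0.272) and 5.95 (SE 0.277) on the log2 scale, with adjusted p = 3.63e-11 and 1.44e-10, and 8.72 and 8.17 without WT_Veh replicate 2. Cfp, the stabiliser of that convertase, differed from both: its WT means were 314 CPM in vehicle, 404 under KLA and 241 under poly I:C, and neither difference was past a fold of 1.5. Ptx3 went from 1.44 and 0.821 CPM in vehicle to 11.3 and 15.2 CPM under KLA and to 9.88 and 10.1 CPM under poly I:C. Its log2 changes were 3.53 (SE 0.291, adjusted p = 7.75e-17) and 3.13 (SE 0.292, adjusted p = 1.16e-14).

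C1qa was called in both comparisons in opposite directions. Its WT libraries were at 530 and 655 CPM in vehicle, 286 and 293 under KLA, and 1350 and 1290 under poly I:C. KLA was below and poly I:C above vehicle without overlap, with log2 changes of -1.03 (SE 0.0772, adjusted p = 2.63e-12) and 1.15 (SE 0.0730, adjusted p = 8.36e-14). In the other experiments, where KLA and vehicle libraries shared a stamp, the C1qa means were higher under KLA with this scaling. They were 429 against 312 CPM in wild-type, 232 against 137 CPM in Pgc1b flox/flox and 396 against 315 CPM in DMSO cells. With library totals, these differences were -0.31, 0.07 and -0.45 on the log2 scale. C1qb and C1qc rose with poly I:C, by 0.74 and 0.66 on the log2 scale (C1qc 0.55, under the fold threshold, without WT_Veh replicate 1), and were not called with KLA, at -0.14 and -0.47, although their KLA libraries too lay below both vehicle libraries. The scaling of the libraries mattered for these genes, whose changes were smaller than those of C3, Cfb and Ptx3. Scaled by library totals without TMM factors, the median change of all genes moved from -0.14 to -0.87 with KLA and from -0.07 to -0.71 with poly I:C. With KLA, C1qa was then at -1.76, and C1qb (-0.87), C1qc (-1.20) and C5ar1 (-0.83) were called lower. With poly I:C, C1qa, C1qb and C1qc were at 0.51, 0.09 and 0.01 and not called, and Cfp (-1.02), C3ar1 (-0.59) and C5ar1 (-0.65) were called lower. C3, Cfb and Ptx3 were called higher under either scaling in both comparisons.

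IFNβ called 1 of 9 genes, against 6.47% of all genes (4.09% higher): Cfb, at 10.4 and 10.9 CPM, with a log2 change of 1.33 (SE 0.435, adjusted p = 0.0405). This call was lost without either IFNβ library or without WT_Veh replicate 1 (1.36, 1.30 and 0.49). Leaving out WT_Veh replicate 2 gave 3.55 for Cfb and 1.88 for C3, both called, where C3 with all libraries was at 122 and 117 CPM and 0.80 (SE 0.330, adjusted p = 0.104). IL-4 called 2 of 9, against 13.1% of all genes (6.63% higher and 6.46% lower). C5ar1, the C5a receptor, fell from 622 and 604 CPM to 321 and 308 CPM, a log2 change of -0.96 (SE 0.0562, adjusted p = 1.62e-22). Ptx3 rose to 3.54 and 3.38 CPM under IL-4, by 1.60 (SE 0.332, adjusted p = 7.34e-05). With IL-4, C3 and Cfb were at -0.31 and -1.11 and not called. They were called lower without WT_Veh replicate 1 (-0.93 and -1.95) and called higher without WT_Veh replicate 2 (0.77 and 1.11), so their direction rested on 1 vehicle library.

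RANKL called 5 of 9 genes, against 43.8% of all genes (24.1% higher and 19.8% lower). C1qa, C1qb, C1qc and C3ar1 were lower, with log2 changes between -1.34 (C1qc) and -0.83 (C3ar1). C3ar1, the C3a receptor, was at 1260 and 1200 CPM against 2080 and 2280 CPM in vehicle. C3 rose to 136 and 137 CPM, by 0.99 (SE 0.327, adjusted p = 0.0165), and by 2.07 without WT_Veh replicate 2. That call was lost without either WT_RANKL library (adjusted p = 0.0512 and 0.0534) or WT_Veh replicate 1 (0.37 on the log2 scale), and in a fit of these 2 groups alone (adjusted p = 0.36). Cfb was at 0.56 and not called, and at 2.78 and called without WT_Veh replicate 2. The neutrophil and precursor markers above moved with this comparison. The macrophage markers moved too, from 7810 to 8420 CPM in WT vehicle to 4380 to 4390 CPM in WT RANKL. The 7 stromal markers went from 92.2 to 102 CPM to 202 to 229 CPM. The part of these markers in the comparison was not tested. In bulk RNA, fewer cells of a type and less RNA per cell cannot be told apart.

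The remaining complement and pentraxin genes, a list of 52 by role, had 51 in the tables and 26 tested in the first experiment. KLA called 6 of the 26 higher and 8 lower, where 25.4% of all genes were called higher and 32.3% lower. C1ra, a protease of the C1 complex, went from 3.77 to 25.7 CPM, and Cd55, an inhibitor that speeds decay of the convertases, from 0.891 to 10.2 CPM. Lower were C5ar2, a second C5a receptor (23.1 to 3.14 CPM), and Cd93, a receptor first described for C1q (647 to 182 CPM). Poly I:C called 7 higher and 6 lower, RANKL 7 and 4, IL-4 2 and 4, and IFNβ 3 and 1. Over all genes, these treatments called 47.2%, 43.8%, 13.1% and 6.47% in either direction. With poly I:C, Serping1, the C1 inhibitor, rose from 2.78 to 8.31 CPM. With RANKL, Fcnb, ficolin B, a lectin pathway recognition molecule, went from 0.0342 to 8.07 CPM. Its vehicle mean lay under 3 counts a library, which equalled 0.205 to 0.206 CPM in WT vehicle. Clu, clusterin, a fluid-phase inhibitor of the terminal complex, went from 0.377 to 11.2 CPM. C1qbp, a mitochondrial protein first described as a receptor for C1q, went from 38.9 to 130 CPM. The neutrophil and precursor markers were high in the same libraries, and their part was not tested. Serping1 and, further on, Masp2, Colec12 and Cr1l were picked from the list after their values were seen.

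Loss of NCoR was compared within each treatment. In vehicle, 5 of 9 genes were called, all lower, against 6.21% of all genes, 3.80% lower (median log2 change of the 9 genes -0.80, of all genes -0.02). C1qa was at 247 and 237 CPM in NKO against 530 and 655 CPM in WT, and the libraries did not overlap. Its log2 change was -1.29 (SE 0.0748, adjusted p = 2.89e-13). C1qb (-0.70, SE 0.0532) and C1qc (-0.80, SE 0.0554) were lower too. C3 stood at 16.0 and 17.2 CPM in NKO, a log2 change of -2.05 (SE 0.406, adjusted p = 0.00263), which became -0.96 without WT_Veh replicate 2. Ptx3 was at 0.215 and 0.570 CPM in NKO, a change of -1.44 (SE 0.501, adjusted p = 0.0326) on 3 to 21 counts a library. That call was lost without NKO_Veh replicate 1 (-0.97) or without WT_Veh replicate 1 (-0.98). Cfb was at 0.574 and 1.60 CPM in NKO, a change of -1.87 (SE 0.709, adjusted p = 0.0879) that was not called. It was called by DESeq2 (-1.92) and without WT_Veh replicate 1 (-2.71), and turned to 0.35 without WT_Veh replicate 2. Fitted on the vehicle groups alone, C3 (-2.04, adjusted p = 0.319) and Ptx3 (-1.43, adjusted p = 0.112) lost their calls in edgeR. Vehicle cells of the other experiments (wild-type, Pgc1b flox/flox and DMSO), scaled separately, averaged 312, 137 and 315 CPM for C1qa. They averaged 1600, 616 and 1350 CPM for C1qb, 1070, 482 and 844 for C1qc, and 16.5, 7.78 and 19.6 for C3. The NKO vehicle means (242, 1250, 795 and 16.6 CPM) lay within these ranges. The WT vehicle means (593, 2020, 1380 and 68.8 CPM) lay above them. NKO vehicle was not tested against these cells.

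The C1q chains were lower in NKO in 3 further treatments, all of which shared the stamp of the vehicle libraries. Under KLA and RANKL, whose libraries carried other stamps, the C1q means of NKO lay above those of WT (below). A trait of the WT cells of the shared stamp therefore cannot be told apart from the genotype. C1qa was lower by 0.99 under IFNβ, 1.13 under IL-4 and 1.01 under poly I:C on the log2 scale, where the 2 NKO libraries never reached the WT libraries. For example, poly I:C gave 679 and 628 CPM in NKO against 1350 and 1290 CPM in WT. C1qb and C1qc were at -0.67 and -0.74 under IL-4, at -0.68 and -0.69 under poly I:C and at -0.52 and -0.59 under IFNβ, and all were called except C1qb under IFNβ. The counts called lower were 5 of 9 under IL-4 (4.24% of all genes called, 2.33% lower), 5 of 9 under poly I:C (5.93%, 2.92% lower) and 2 of 9 under IFNβ (3.80%, 1.94% lower). No gene was called higher in these treatments. The C1qc call under IFNβ had a fold of 1.50 and fell to either side of the threshold with a library left out (-0.60 to -0.57), and it was lost in DESeq2 (-0.58). The 8 osteoclast markers, led by Mmp9 in NKO under poly I:C, moved with these comparisons. They summed to 958 to 1120 CPM in WT and 2130 to 2160 CPM in NKO in vehicle, 820 to 873 and 1770 CPM under IFNβ, 1510 to 1540 and 2530 to 2600 CPM under IL-4, and 547 to 557 and 2450 to 2480 CPM under poly I:C. From 5 to 6 of the 8 were above 3 counts in these groups, Calcr was at 0 in both poly I:C groups, and their part in the differences was not tested.

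Ptx3 differed most under poly I:C, with 1.80 and 2.28 CPM in NKO against 9.88 and 10.1 CPM in WT. This was a log2 change of -2.29 (SE 0.287, adjusted p = 3.65e-09), beside -1.42 (SE 0.324, adjusted p = 0.00083) under IL-4. The stromal markers (7 genes, led by collagens) summed to 65.6 to 73.7 CPM in NKO and 118 to 135 CPM in WT under poly I:C, and to 71.9 to 78.5 and 103 to 128 CPM under IL-4. Their part in the Ptx3 difference was not tested. C5ar1 was lower by 0.68 under IL-4, at 196 and 196 CPM in NKO against 321 and 308 CPM in WT. Cfb was lower by 0.68 under poly I:C (164 and 161 against 263 and 260 CPM, SE 0.174, adjusted p = 0.013), a call lost when any 1 of the 4 libraries was left out (adjusted p from 0.0633 to 0.0775) and in DESeq2 (adjusted p = 0.45). C3ar1 and Cfp were not called in any of these treatments or in vehicle. The effect of NKO on the 9 genes did not pass the test of a difference from its effect in vehicle under poly I:C (0 of 9, 3.24% of all genes), IFNβ (0 of 9, 0.604%) or IL-4 (0 of 9, 0.604%). At an unadjusted p under 0.05, edgeR had 2, 5 and 3 of the 9, and DESeq2 called C3 in each. Without WT_Veh replicate 1, edgeR called C3 and Cfb in each, with differences from 2.00 to 2.37. Without WT_Veh replicate 2, C3 was at 0.45, 0.57 and 0.44 and Cfb turned to -1.04, -0.68 and -1.06, none of them called.

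**Figure D2:**
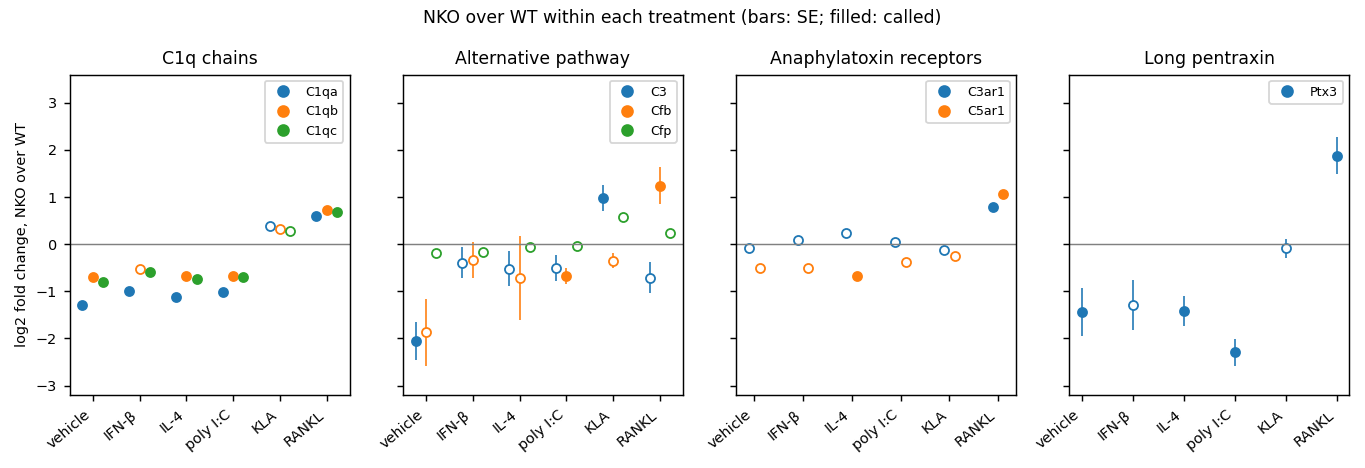
Log2 fold change of NKO over WT within each treatment, by role, with the standard error as a bar; filled points passed the adjusted p and fold thresholds. C1qa, C1qb and C1qc lay below 0 in vehicle, IFNβ, IL-4 and poly I:C and above 0 in RANKL, where they were called, and in KLA, where they were not.

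In the first experiment, the balance of the C1q chains differed between the genotypes outside KLA. The ratio of C1qb to C1qa, both per kilobase, was 3.61 and 3.37 in WT vehicle and 5.18 and 5.32 in NKO vehicle. Under IFNβ it was 3.78 and 3.85 against 5.26 and 5.30, and under IL-4 3.82 and 3.77 against 5.33 and 5.06. Poly I:C had the lowest ratios, 2.57 and 2.64 in WT and 3.19 and 3.37 in NKO. In each of these 4 treatments the NKO libraries lay above the WT libraries, although with 2 libraries against 2 the exact two-sided permutation p cannot go below 0.333. Under RANKL, where C1qa was higher in NKO, the ratio was 3.58 and 3.59 in WT and 4.13 and 3.74 in NKO, again without overlap. Under KLA the genotypes overlapped, at 6.55 and 6.35 in WT and 5.99 and 6.38 in NKO. The ratio of C1qb to C1qc moved less, from 1.43 to 1.91 over the 24 libraries. Vehicle cells of the other experiments also had C1qb to C1qa ratios above those of WT vehicle. These were 5.24 and 5.19 in wild-type cells, 4.53 and 4.66 in Pgc1b flox/flox cells, and 4.61 and 4.14 in DMSO cells. The wild-type values overlapped those of NKO vehicle.

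**Figure D3:**
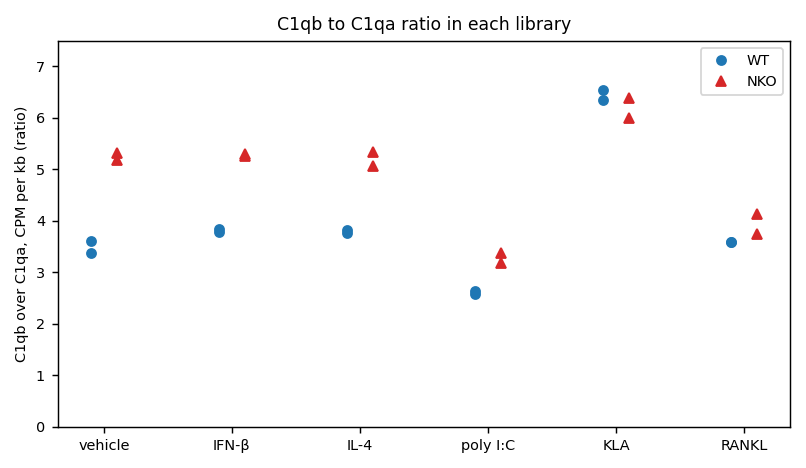
Ratio of C1qb to C1qa, each as CPM per kilobase of transcript, in every library of WT and NKO BMDMs by treatment. NKO points lie above WT points in vehicle, IFNβ, IL-4, poly I:C and RANKL and overlap them under KLA.

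Under KLA only C3 was called among the 9 genes, with 40.0% of all genes called (21% higher). C3 was at 6030 and 5710 CPM in NKO and 2950 and 2980 CPM in WT, a log2 change of 0.98 (SE 0.282, adjusted p = 0.0084). Against KLA libraries of other control cells, fitted jointly, C3 in NKO_KLA was higher by 1.13, 1.89 and 1.25 on the log2 scale, called each time. C1qa did not keep 1 direction, at 0.38 against WT_KLA and -0.47, 0.75 and -0.12 against the other 3 controls. Ptx3 was -0.09 against WT_KLA (11.9 and 12.9 against 11.3 and 15.2 CPM) and between -0.63 and -0.57 against the others. Cfb was at 295 and 302 CPM in NKO and 385 and 379 CPM in WT, a change of -0.35 that was not called. Cfp was at 0.57, under the fold threshold, and past it without NKO_KLA replicate 1 (0.64) or WT_KLA replicate 2 (0.59). Against the other 3 controls Cfp was called higher each time, by 0.63, 0.93 and 1.40. These fits all used the same 2 NKO_KLA libraries, whose stamp no control shared. They therefore cannot tell the stamp and the genotype apart. The NKO effect under KLA differed from that in vehicle for 6 of 9 genes, all toward higher (36.9% of all genes passed, 19.9% toward higher). The differences were 1.67 for C1qa, 1.01 for C1qb, 1.07 for C1qc, 3.03 for C3, 0.75 for Cfp and 1.34 for Ptx3. Without WT_Veh replicate 2 the C3 value was 1.95. The Ptx3 call was lost without NKO_Veh replicate 1 (0.88), WT_Veh replicate 1 (0.89), NKO_KLA replicate 2 (1.29) or WT_KLA replicate 1 (1.15). Cfb, at 1.52 and not called, was called without WT_Veh replicate 1 (2.36) and turned to -0.70 without WT_Veh replicate 2.

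Under RANKL the NKO cells lay above the WT cells for most of the genes. Here 7 of 9 genes were called, all higher in NKO, against 13.2% of all genes (6.21% higher). The receptors rose most clearly: C5ar1 was at 1020 and 1190 CPM in NKO against 529 and 528 CPM in WT (log2 change 1.07, SE 0.0553, adjusted p = 5.14e-24), and C3ar1 at 2140 and 2100 against 1260 and 1200 CPM (0.79, SE 0.0491, adjusted p = 2.39e-20). C1qb reached 1620 and 1730 against 1050 and 975 CPM (0.73), C1qc was at 0.68 and C1qa at 0.60, and these last 2 were under the fold threshold with library totals (0.58 and 0.50). NKO and WT libraries did not overlap for any of these 5 genes. Cfb (13.1 and 16.5 against 5.89 and 6.56 CPM, 1.24) lost its call without any 1 of the 4 libraries and in DESeq2. Ptx3 (1.81 and 4.05 against 0.785 and 0.767 CPM, 1.88) lost its call without NKO_RANKL replicate 2, at 1.21. C1qa was under the fold threshold without NKO_RANKL replicate 2 (0.47) or WT_RANKL replicate 2 (0.54). C3 was the exception in direction, at 70.9 and 97.1 CPM in NKO against 136 and 137 CPM in WT, a change of -0.71 that was not called (SE 0.332, adjusted p = 0.125) except in a fit of these 2 groups alone (-0.72, adjusted p = 0.0038).

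The NKO effect in RANKL differed from that in vehicle for 7 of 9 genes, all toward higher (14.2% of all genes, 7.26% toward higher). The differences were 1.89 for C1qa, 1.43 for C1qb, 1.48 for C1qc, 0.88 for C3ar1, 1.57 for C5ar1, 3.12 for Cfb and 3.31 for Ptx3. The Cfb value was 0.89 and not called without WT_Veh replicate 2, and C3, at 1.34 and not called, was called by DESeq2 (1.35) and without WT_Veh replicate 1 (1.95) and was 0.25 without WT_Veh replicate 2. The neutrophil and precursor markers summed to 918 and 987 CPM in the NKO_RANKL libraries and to 629 and 654 CPM in the WT_RANKL libraries. All 5 of these markers were above 3 counts in every RANKL library. The macrophage markers summed to 5280 to 5680 CPM in NKO_RANKL and to 4380 to 4390 CPM in WT_RANKL. The stromal markers summed to 246 to 348 CPM and to 202 to 229 CPM in the same order. The part of these 3 sets of markers in the difference was not tested.

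Of the other complement genes, NKO called 1 of 26 higher and 4 lower in vehicle, 1 and 2 under poly I:C and 0 and 2 under IFNβ. The counts were 0 and 1 under IL-4, 8 and 4 under KLA and 4 and 2 under RANKL. Over all genes, NKO called 6.21%, 5.93%, 3.80%, 4.24%, 40.0% and 13.2% in either direction, in the same order. Nptx1, a neuronal pentraxin, was lower in NKO in all treatments but KLA, from 39.1 to 24.8 CPM in vehicle and from 56.2 to 4.91 CPM in RANKL. Under KLA it was higher in NKO, 33.4 against 5.36 CPM, as were Itgax, a subunit of complement receptor 4 (227 against 91.9 CPM), and C4b, whose product C4 feeds the classical convertase (5.10 against 1.07 CPM) and whose reads may be shared with its near copy C4a. Serping1 was lower in NKO under poly I:C, 3.35 against 8.31 CPM, and higher under RANKL, 6.06 against 1.82 CPM.

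The order of the 12 groups in this experiment differed by role. C1qa, C1qb and C1qc were all highest in WT under poly I:C, at means of 1320, 3370 and 2180 CPM, followed by WT under IFNβ, which for C1qa overlapped NKO under poly I:C. C1qa was lowest in NKO under IL-4, at 211 CPM, and C1qb and C1qc were lowest in WT under RANKL, at 1010 and 548 CPM, with C1qb there overlapping NKO under IL-4. C3 was highest in NKO under KLA and Cfb in WT under KLA, where the next groups did not overlap them. C3ar1 ranged only from 1230 CPM (WT RANKL) to 3110 CPM (NKO IFNβ) and C5ar1 from 196 CPM (NKO IL-4) to 1110 CPM (NKO RANKL). Cfp had its lowest means under poly I:C, 241 CPM in WT and 237 CPM in NKO, which overlapped. Over the 12 group means of log2 CPM, C1qb and C1qc were the nearest to each other of all genes considered (Pearson r = 0.960), while C1qa was nearest to C1qc at 0.875. Cfb lay closest to Mmp25 (0.989), Ptx3 to Fscn1 (0.915), C5ar1 to B4galt6 (0.915), C3ar1 to Vapb (0.857) and Cfp to Emilin2 (0.952). C3 was nearest to Mir6978 (0.987), a row that lies inside C3 on the same strand and shares its reads, and then to Cd69 (0.987). These values describe 12 groups that share controls and stamps.

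**Figure D4:**
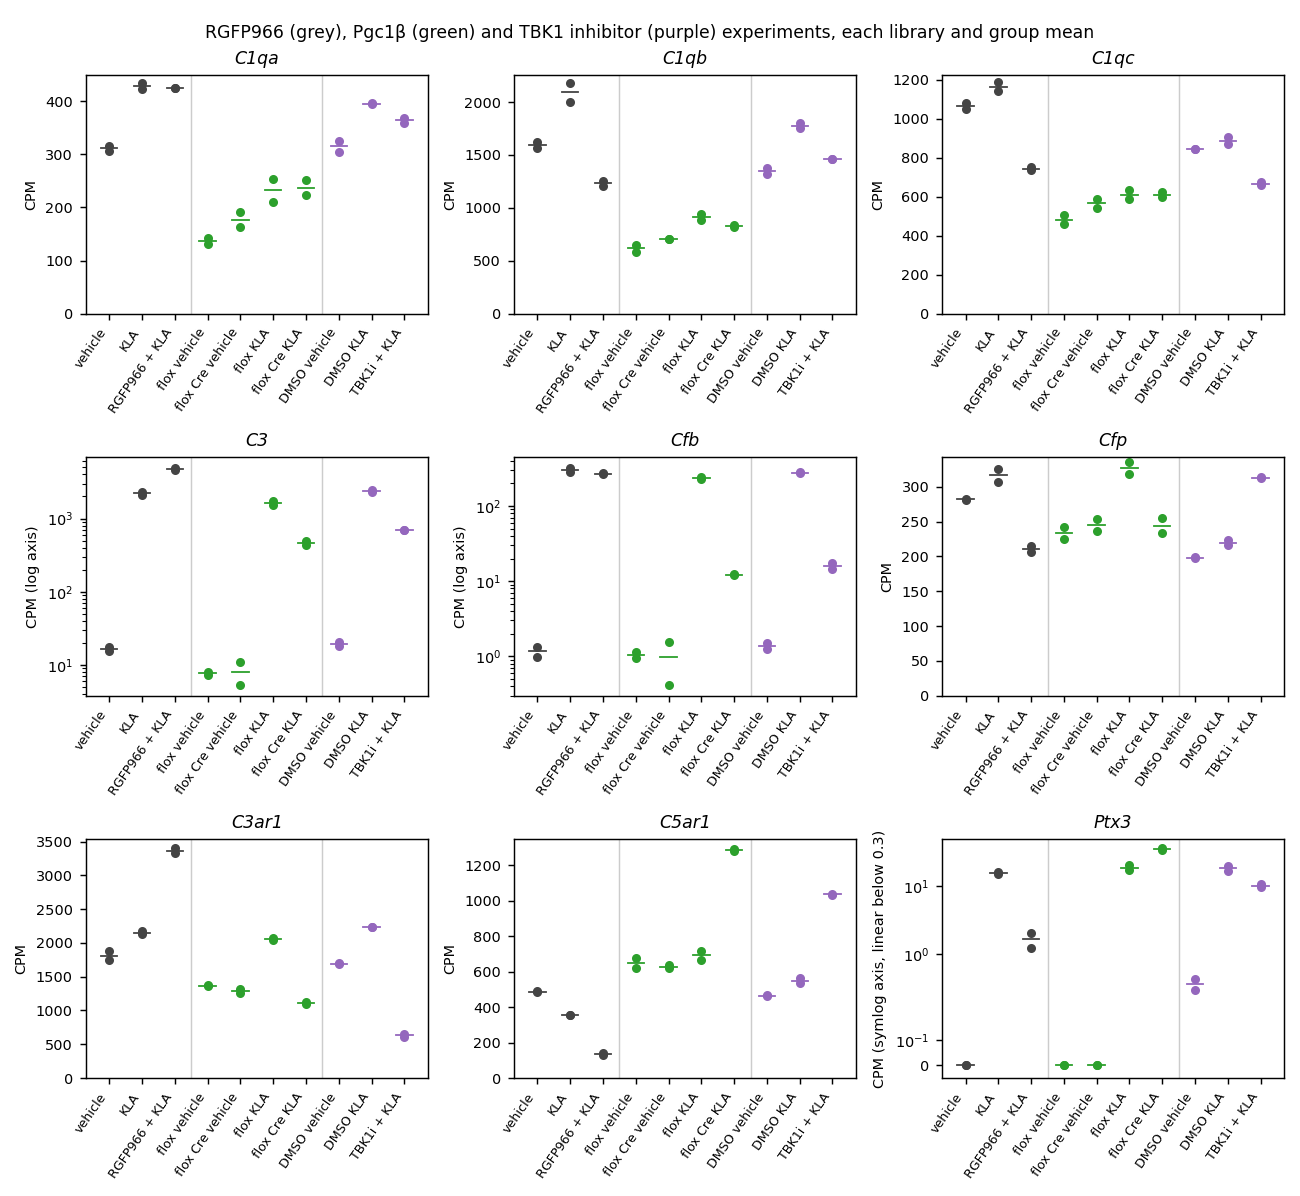
CPM of the 9 genes in each library (points) and group mean (bar) of the RGFP966, Pgc1β and TBK1 inhibitor experiments; C3 and Cfb are on log axes and Ptx3 on a symlog axis that shows 0. Ptx3 had no count in the vehicle libraries of the first and second of these experiments, and Cfb under KLA was over 200 CPM in control cells but under 20 CPM with LysMCre or the TBK1 inhibitor.

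KLA was tested in 3 further sets of control cells, and C3, Cfb and Ptx3 were called higher in each. The counts were 3 of 9 in wild-type cells (60.0% of all 12196 genes tested called, 27.9% higher), 5 of 9 in Pgc1b flox/flox cells (48.5% of 12205, 22.8% higher) and 3 of 9 in DMSO cells (58.9% of 12332, 29.6% higher). C3 went from 15.4 and 17.6 CPM to 2310 and 2090 CPM in wild-type cells, from 8.11 and 7.44 to 1740 and 1540 CPM in Pgc1b flox/flox cells, and from 18.5 and 20.7 to 2330 and 2420 CPM in DMSO cells. Its log2 changes were 7.06, 7.73 and 6.92. Cfb rose by 8.03, 7.82 and 7.64 from means of 1.16, 1.04 and 1.38 CPM. These vehicle levels lay below those of WT_Veh replicate 2, which was at 105 CPM for C3 and 7.53 CPM for Cfb.

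Ptx3 had 0 counts in both vehicle libraries of the wild-type and the Pgc1b flox/flox cells. Against a floor of 3 counts per library, KLA raised it at least 107-fold in the former, to 15.1 and 16.3 CPM, and at least 85.3-fold in the latter, to 20.6 and 17.3 CPM. In DMSO cells it went from 0.302 and 0.438 CPM to 19.9 and 16.9 CPM, 5.60 (SE 0.282) on the log2 scale. The stromal markers summed to at most 4.34 CPM in the vehicle libraries without Ptx3 counts, which include those with LysMCre. They summed to 53.7 to 55.9 CPM in DMSO vehicle and to 92.2 to 102 CPM in WT vehicle of the first experiment. With KLA they fell to 16.5 to 22.9 CPM in WT, where Ptx3 rose. In wild-type, Pgc1b flox/flox and DMSO cells they rose with KLA, to 22.4 to 22.9, 22.2 to 24.1 and 100 to 102 CPM. Their part in these levels was not tested.

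C1q in these 3 comparisons depended on the scaling, and with TMM C1qa went opposite to its fall in the first experiment. C1qa was called higher with KLA in Pgc1b flox/flox cells (137 to 232 CPM, 0.77), and was at 0.46 and 0.33, not called, in wild-type and DMSO cells. With library totals alone these 3 values were 0.07, -0.31 and -0.45, and the median of all genes moved to -0.74, -0.83 and -0.76. C3ar1 in Pgc1b flox/flox cells was 0.59 and called with TMM, 0.58 and under the fold threshold without Pgc1b_flox_KLA replicate 1 or Pgc1b_flox_Veh replicate 2, and -0.10 with library totals. C1qb, at 0.57, passed it without Pgc1b_flox_KLA replicate 2 (0.60) or Pgc1b_flox_Veh replicate 2 (0.64). C5ar1 was at 485 and 490 CPM in vehicle and 353 and 354 CPM under KLA in wild-type cells, a change of -0.46. It was at 0.09 and 0.24 in the other 2 experiments, none of these past the fold threshold. With library totals the C5ar1 values were -1.23, -0.60 and -0.54.

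HDAC3 inhibition in KLA-treated cells called 7 of 9 genes, 2 higher and 5 lower, against 25.4% of all genes (15.8% higher and 9.54% lower). C3 rose from 2310 and 2090 CPM to 4950 and 4590 CPM with RGFP966 (1.12, SE 0.0557, adjusted p = 1.88e-30), whereas Cfb stayed within the fold threshold, at 263 and 275 against 323 and 284 CPM (-0.17). Cfp was lower, at 207 and 215 against 326 and 307 CPM (-0.59, SE 0.0586), a call lost without KLA replicate 1 (-0.54) or RGFP966_KLA replicate 1 (-0.56) and with library totals (-0.55). C3ar1 rose from 2170 and 2130 to 3330 and 3400 CPM (0.65, SE 0.0534, and 0.58, under the fold threshold, with DESeq2 or its size factors), and C5ar1 fell from 353 and 354 to 141 and 131 CPM (-1.38, SE 0.0602, adjusted p = 5.5e-34). The receptors were without overlap in opposite directions.

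Ptx3 showed the largest fall with RGFP966 among the 9 genes, from 15.1 and 16.3 CPM to 1.25 and 2.10 CPM (-3.23, SE 0.237, adjusted p = 1.19e-20). C1qb fell from 2180 and 2000 to 1210 and 1250 CPM (-0.76) and C1qc from 1190 and 1140 to 739 and 750 CPM (-0.65). C1qa did not follow, at 424 and 425 CPM against 435 and 423 CPM (-0.02, SE 0.0559), and the libraries overlapped. The ratio of C1qb to C1qa per kilobase was accordingly 2.92 and 3.00 with RGFP966 and 5.10 and 4.81 with KLA alone. RGFP966_KLA replicate 2 carried another stamp than the other 5 libraries, and 7 of 9 genes were called without it. Of 20 other complement genes tested, 2 were higher and 5 lower, where 25.4% of all genes were called. Among the lower were Cr1l, a mouse regulator of C3 convertases (109 to 68.6 CPM), and Colec12, a scavenger receptor collectin (15.6 to 8.78 CPM).

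Pgc1b flox/flox, LysMCre cells were compared with Pgc1b flox/flox cells. In vehicle, 0 of 9 genes were called by edgeR and by DESeq2, where 0.303% of all genes were called and 3 of the 9 had an unadjusted p under 0.05. Under KLA, 5 of 9 were called, 2 higher and 3 lower, against 26.1% of all genes (13.2% higher and 12.9% lower). Cfb was at 12.0 and 12.4 CPM in the libraries labelled LysMCre and 228 and 240 CPM in the controls, 19.2-fold lower (log2 change -4.26, SE 0.129, adjusted p = 2.38e-24). C3 was at 442 and 491 against 1740 and 1540 CPM, 3.53-fold lower (-1.82, SE 0.164). C3ar1 was lower, at 1100 and 1120 against 2070 and 2040 CPM (-0.89, SE 0.0552), and C5ar1 higher, at 1290 and 1280 against 715 and 667 CPM (0.89, SE 0.0599). Ptx3 rose to 33.9 and 36.7 CPM from 20.6 and 17.3 CPM (0.89, SE 0.178, adjusted p = 9.91e-05). C1qa, C1qb and C1qc were not called, at 0.03, -0.14 and 0.00.

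The difference between the LysMCre effects under KLA and in vehicle passed for 4 of 9 genes, against 22.8% of all genes (11.6% higher and 11.2% lower). It was -4.14 for Cfb, -1.87 for C3, -0.81 for C3ar1 (-0.58 and not called with library totals) and 0.93 for C5ar1. The C3 call was lost in each fit without 1 control library, with values from -1.93 to -1.77, and held in the fits without 1 LysMCre library. The value for Ptx3 cannot be estimated, since both vehicle groups had 0 counts. Of 19 other complement genes under KLA, 6 were higher and 1 lower, where 26.1% of all genes were called. They included C5ar2 (4.83 to 10.0 CPM), Cd93 (240 to 445 CPM) and Masp2, a lectin pathway protease (6.79 to 2.90 CPM).

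The TBK1 inhibitor in KLA-treated cells called 5 of 9 genes, 1 higher and 4 lower, against 33.3% of all genes (15.0% higher and 18.3% lower). Cfb was at 14.7 and 17.5 CPM with the inhibitor and 279 and 277 CPM with DMSO, 17.3-fold lower (-4.12, SE 0.0776). C3 was at 701 and 708 against 2330 and 2420 CPM, 3.37-fold lower (-1.75, SE 0.0367). C3ar1 was at 651 and 614 against 2240 and 2230 CPM, 3.53-fold lower (-1.82, SE 0.0361), and C5ar1 was at 1040 and 1030 against 563 and 533 CPM (0.92, SE 0.0382, adjusted p = 4.44e-127). No library of either group overlapped for these 4 genes. Ptx3 was at 10.7 and 9.70 against 19.9 and 16.9 CPM (-0.85, SE 0.172, adjusted p = 2.63e-06). With library totals Ptx3 was at -0.48 and not called. C1qa, C1qb and C1qc were at -0.12, -0.28 and -0.41, all below the fold threshold, and Cfp was at 0.51, or 0.88 and called with library totals. The 4 endothelial markers, of which Kdr made up most under KLA, moved with C3 and Cfb in some comparisons and not in others. They summed to 7.70 to 8.96 CPM in WT vehicle, 187 to 199 CPM in WT with KLA and 285 to 301 CPM with poly I:C. With KLA they were at 123 to 131 CPM in DMSO cells and 3.81 to 5.08 CPM with the TBK1 inhibitor. They were at 102 to 113 CPM in Pgc1b flox/flox cells and 16.5 to 19.3 CPM with LysMCre. Under KLA they were also lower in NKO, at 77 to 85.2 CPM against 187 to 199 CPM in WT. RGFP966 lowered them too, from 121 to 144 CPM to 39.2 to 40.7 CPM. In NKO and with RGFP966, C3 was higher and Cfb was not called. Tek, one of the 4, had a mean of at most 0.0750 CPM in the KLA groups. Their part in these results was not tested.

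Cells with the TBK1 inhibitor and KLA differed from DMSO vehicle for 6 of 9 genes, against 57.3% of all genes (26.8% higher and 30.5% lower). No group received the TBK1 inhibitor or RGFP966 without KLA. In comparisons of these cells with vehicle, effects of the drug and of KLA therefore cannot be told apart. C3 was 5.17 higher and Cfb 3.53 higher on the log2 scale, Ptx3 was 4.75 higher, Cfp 0.66 and C5ar1 1.16 higher, and C3ar1 fell by 1.42 to below its vehicle level of 1690 CPM. With library totals Cfp was at 0.25 and not called, and C1qc was called lower (-0.75). For RGFP966 with KLA against vehicle, 5 of 9 were called (54.3% of all genes, 28.0% higher and 26.3% lower): C3, Cfb, C3ar1 and Ptx3 higher and C5ar1 lower. With library totals C3ar1 was at 0.16 and not called, and Cfp (-1.15), C1qb (-1.11) and C1qc (-1.25) were called lower. In the same comparison C1ra went from 2.47 to 26.4 CPM, its relative C1rl from 0.906 to 7.54 CPM and Nptx1 from 13.4 to 0.371 CPM. Of 18 other complement genes under the TBK1 inhibitor, 2 were higher and 5 lower than with DMSO and KLA, where 33.3% of all genes were called. C1ra fell from 13.1 to 4.04 CPM and Serping1 from 4.63 to 1.67 CPM.

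**Figure D5:**
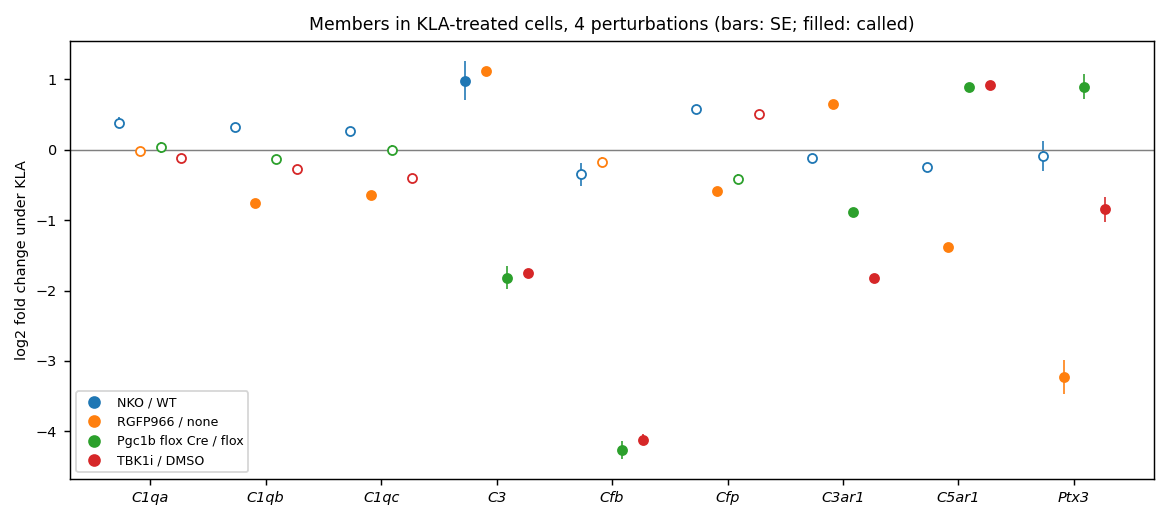
Log2 fold change of each gene in KLA-treated cells for NKO over WT, RGFP966 over none, Pgc1b flox/flox LysMCre over Pgc1b flox/flox, and TBK1 inhibitor over DMSO, with the standard error as a bar; filled points passed both thresholds. Cfb was at -4.26 and -4.12 with LysMCre at Pgc1b and with the TBK1 inhibitor, and at -0.35 and -0.17 in NKO and with RGFP966.

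Set side by side, the 4 perturbations of KLA-treated cells came from separate experiments with controls of their own. C3 was at 0.98 in NKO, 1.12 with RGFP966, -1.82 with LysMCre at Pgc1b and -1.75 with the TBK1 inhibitor. C3ar1 was at -0.12, 0.65, -0.89 and -1.82 in the same order, and C5ar1 at -0.25, -1.38, 0.89 and 0.92. Ptx3 was at -0.09, -3.23, 0.89 and -0.85. Cfb was at -0.35, -0.17, -4.26 and -4.12. The differences between these effects were not tested, because the tables were normalised separately.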

How the data were processed

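Poly(A) RNA from BMDMs was sequenced as stranded (dUTP) libraries, 2 per group. Per the methods and file headers, the authors mapped reads with STAR to mm10 and counted exon reads per gene with HOMER, keeping 1 transcript per gene, and deposited raw counts with no normalization. Values are shown here as CPM, normalised to library sizes scaled with TMM factors. Each table was fitted by itself, with all of its groups in 1 model, in edgeR 4.0.16 (R 4.3.3): genes were kept by filterByExpr, dispersions and the quasi-likelihood fit were robust, and p-values were adjusted by Benjamini-Hochberg over all genes tested. Groups came from the sample labels. DESeq2 1.42.0, other scalings and filters, a replicate block and the omission of each library were alternatives. Scaling by library totals without TMM factors was chosen after seeing the data.

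Libraries held 8323493 to 16783155 gene counts, and 3 counts equalled 0.141 to 0.500 CPM. The 9 genes, the list of 52 other complement and pentraxin genes and the marker lists were chosen with earlier results of these data known. Genes named from the list were, per role, up to 3 with the largest log2 change among called genes with a mean of 5 CPM or more in either group. Another 4 were picked after their values were seen and are marked so, and 1 listed gene is not reported here. The closest genes to each member were the 3 genes with the highest Pearson r over the 12 group means of log2 CPM in the first table. Promoters came from RefSeq (GRCm38.p6). Figures were drawn with matplotlib.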

Additional observations from a re-analysis of the deposited data

Results flagged for a closer look

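For 3 contrasts, the effect of a genotype on members of the group differed between treatments by a test of the difference itself (an interaction term in edgeR). The values below are log2 differences between the genotype effect under the stimulus and that in vehicle. For NKO and KLA they were 3.03 for C3, 1.67 for C1qa, 1.34 for Ptx3, 1.07 for C1qc, 1.01 for C1qb and 0.75 for Cfp. The WT_KLA and NKO_KLA libraries carry different stamps, which cannot be told apart from the genotype. For NKO and RANKL they were 3.31 for Ptx3, 3.12 for Cfb, 1.89 for C1qa, 1.57 for C5ar1, 1.48 for C1qc, 1.43 for C1qb and 0.88 for C3ar1. RANKL libraries were treated for 12 h against 6 h in vehicle and carry a stamp of their own. For LysMCre at Pgc1b and KLA they were -4.14 for Cfb, -1.87 for C3, -0.81 for C3ar1 and 0.93 for C5ar1. Some of these rested on single libraries. Without WT_Veh replicate 2 the C3 value for KLA was 1.95 and the Cfb value for RANKL 0.89, the latter not called. The Ptx3 value for KLA was not called when NKO_Veh replicate 1, WT_Veh replicate 1, NKO_KLA replicate 2 or WT_KLA replicate 1 was left out (0.88 to 1.29), nor the C3 value for Pgc1b without any 1 control library (-1.93 to -1.77), and the C3ar1 value for Pgc1b was -0.58 and not called with library totals.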

How the results depend on the processing

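The number of the 9 genes called stayed within 1.5 times of the first value in 264 alternative fits and moved further in 43. Values are counts of genes called, with the first value after "from". Without the fold threshold the counts were 8 from 4 (WT_KLA against vehicle), 5 from 1 (WT_IFNb), 6 from 2 (WT_IL4), 7 from 1 (NKO_KLA against WT_KLA), 5 from 2 (NKO_IFNb), 1 from 0 (NKO by IL-4), 9 from 3 (wild-type KLA), 9 from 5 (RGFP966_KLA against vehicle), 8 from 5 (Pgc1b flox/flox KLA), 1 from 0 (LysMCre at Pgc1b in vehicle), 8 from 4 (its interaction with KLA), 8 from 3 (DMSO KLA) and 9 from 5 (TBK1 inhibitor). With library totals without TMM factors they were 7 from 4 (WT_KLA), 1 from 0 (NKO by poly I:C), 6 from 3 (wild-type KLA) and 5 from 3 (DMSO KLA). Under that scaling C3ar1 in WT_PolyIC was -0.59 from 0.05, Cfp -0.60 from 0.17 and C1qc -0.64 from 0.13 in wild-type KLA, C3ar1 -0.10 from 0.59 and C5ar1 -0.60 from 0.09 in Pgc1b flox/flox KLA, and Cfp -0.63 from 0.15 and C1qc -0.71 from 0.07 in DMSO KLA. DESeq2 gave 0 from 1 (WT_IFNb), 1 from 2 (NKO_IFNb) and 1 from 0 in each of NKO by poly I:C, IFNβ and IL-4. DESeq2 size factors gave 1 from 2 (NKO_IFNb). No low-count filter gave 0 from 1 (WT_IFNb). Fits of only the compared groups gave 0 from 1 (WT_IFNb) and 3 from 5 (NKO in vehicle). Against other controls NKO_KLA had 3 (DMSO_KLA), 3 (wild-type KLA, without Cfb, whose transcript differs) and 5 (Pgc1b flox/flox KLA) from 1. With 1 library left out, the ranges were 0 to 2 (WT_IFNb), 2 to 4 (WT_IL4), 1 to 2 (NKO_KLA), 1 to 2 (NKO_IFNb), 4 to 6 (NKO_RANKL), and 0 to 2 for NKO by poly I:C, by IFNβ and by IL-4, where the lone library of a group is assumed to vary like the others. With 1 library left out, the log2 changes in WT_IL4 ran from -0.93 to 0.77 for C3 (-0.31 with all libraries) and from -1.95 to 1.11 for Cfb (-1.11), both ends without 1 WT_Veh library. Except where the construction shows it (fewer libraries, no fold threshold), the cause was not tested.

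The replicate block changed no count of genes called (5 of 9 for NKO against WT in vehicle with the block as without it). No pair of groups had deviations from the group means correlated over 0.1 (highest 0.0591), so equal replicate numbers left no broad mark of pairing. These correlations ran over all tested genes, and pairing that touches part of the genes could be missed. With 2 libraries a group and a few counts of Ptx3 or Cfb in vehicle, small changes of these genes were not detectable at this depth.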
